A study of Mus musculus with 2 samples.

Results

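Retinoic acid is made from vitamin A in a chain of steps, and the genes described here cover that chain in the front of the mouse eye. The genes were taken by their symbols, namely Stra6, Aldh1a1, Aldh1a2, Aldh1a3, Dhrs3, Crabp1, Crabp2, Rarb and Cyp26b1, which are 9 of the 32285 genes counted, and the set was drawn up with earlier results of these data known. Each of the 9 symbols matched a single gene identifier. The study asked what the loss of Foxc2, a forkhead transcription factor, in neural crest-derived cells does to the tissues around Schlemm's canal, the vessel that drains aqueous humour from the eye.

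In the eye, retinol reaches cells on retinol-binding protein and can enter through the membrane receptor STRA6. It is oxidised to retinal and then, irreversibly, to retinoic acid by the retinal dehydrogenases ALDH1A1, ALDH1A2 and ALDH1A3, while DHRS3 reduces retinal back to retinol. CRABP1 and CRABP2 bind retinoic acid in the cytoplasm, nuclear receptors such as RARB switch on target genes, and CYP26B1 destroys retinoic acid. Retinoic acid is known as a signal from the optic cup and surface epithelium to the neural crest cells that build the cornea, iris and trabecular meshwork.

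Both groups were 1 library each, made from the pooled eyes of 4 to 6 mice of mixed strain, labelled 4 weeks old and given as 3 to 4 weeks in the protocol. Control mice were Foxc2 flox/flox. NC-Foxc2-/- mice were Foxc2 flox/flox;Wnt1Cre+, so that both groups carried the floxed alleles and only the second carried Wnt1-Cre, which acts in neural crest cells and their progeny, and mutants with moderate eye defects had been chosen. The anterior segment was dissected and the iris taken out before cells were dissociated and captured in droplets. With 1 library a group there is no replicate of either condition, so no test between them exists and every interval below covers counting error alone. In a trabecular meshwork cluster the paper lists the female-expressed RNA Xist higher and the Y-linked Ddx3y lower in NC-Foxc2-/- mice. A difference in sex mix between the pools therefore cannot be told apart from one of genotype.

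The control library held 10773 kept cells and 119599692 UMIs (unique molecular identifiers, each 1 captured RNA molecule), and the NC-Foxc2-/- library held 10872 cells and 94644512 UMIs, with medians of 7663 and 6517 UMIs a cell. Levels are given as CPM, which is the UMIs of a gene over all UMIs of its class and library times 1000000, with the exact 95% Poisson interval. A gene is called higher or lower in a class where NC-Foxc2-/- over control reached 2-fold either way with at least 50 UMIs over both libraries. Foxc2 itself was lower in the NC-Foxc2-/- library in the classes where the control library had most of it, from 46.7 to 0.670 CPM in fibroblasts, from 130.4 to 2.41 CPM in pericyte-like cells and from 27.0 to 5.10 CPM in TM-3. It was not lower in keratocyte-like cells, where it went from 4.00 to 9.72 CPM, and which bases the floxed allele loses was not given in the sources used here.

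The study's own names were kept for its uveal meshwork, its fibroblasts, its endothelial cells and its 3 trabecular meshwork clusters, called TM-1, TM-2 and TM-3. The other classes were rebuilt from the counts and named from markers, and carry the ending "-like". Summed beam-cell markers stood at 2062 and 2268 CPM in TM-1 and at 2270 and 2334 CPM in TM-2, in control and NC-Foxc2-/- respectively. Summed juxtacanalicular markers stood at 3706 and 3120 CPM in TM-3 against 626 and 543 CPM in TM-1. TM-1 and TM-2 thus carried beam markers and TM-3 those of the juxtacanalicular tissue, which lies against Schlemm's canal. A cluster led by Tnc, which no marker list named, is called the Tnc-led cluster.

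Rarb is the member whose promoter holds the textbook response element, so its sequence is shown. Of the 9 genes, 7 had 1 or more start sites in the RefSeq promoter table (GRCm38.p6, the build named mm10 in the counts), which gives 13 windows of 250 bases before and 50 after a start. All 32851 windows were searched on both strands for 2 sites in the same direction spaced by 1, 2 or 5 bases, where a site was spelled AGGTCA, the variant GGTTCA, or the variant AGTTCA. Such a repeat was in 0.371% of windows, with 0.0609% holding the 5-base spacing, and in 1 of the 13 member windows, that of Rarb. The 2 variants are the spellings of the Rarb repeat itself. Its match was therefore set by the choice of spellings and is shown as an illustration, not as a result. It lies at chr14:16575506-16575535 on the minus strand, within the Rarb gene (chr14:16430839-16819156), where it lies in 4 annotated transcripts and overlaps 2 annotated exons, and the repeat ends 37 bases before the RefSeq start. The capitals mark the 2 sites:
Rarb repeat: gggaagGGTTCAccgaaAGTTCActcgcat
A match of letters is a description and says nothing of binding in these cells, and of the other windows it says only that they lack these letters.

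The 9 genes lie on 7 chromosomes. Aldh1a1 is at chr19:20492715-20643465 and Aldh1a2 at chr9:71215789-71296243, both on the plus strand, and Aldh1a3 at chr7:66390890-66427517 on the minus strand. Stra6 (chr9:58063788-58153996, plus) and Crabp1 (chr9:54764748-54773110, plus) share chromosome 9 with Aldh1a2. Crabp2 is at chr3:87948666-87953376 (plus), Cyp26b1 at chr6:84571414-84593908 (minus) and Dhrs3 at chr4:144892827-144928209 (plus).

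The 3 retinal dehydrogenases had their highest levels in different tissues, as the plot of levels by class shows. Aldh1a2 was high in beam-type meshwork, Aldh1a3 in surface epithelium and Aldh1a1 in corneal endothelium-like and keratocyte-like cells and in beam-type meshwork. Crabp1 was highest in the corneal stroma and Cyp26b1 in the blood vessel endothelium. Crabp2, highest in TM-1, and Dhrs3, highest in endothelial and melanocyte-like cells, were found at lower levels in most classes.

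**Figure D1:**
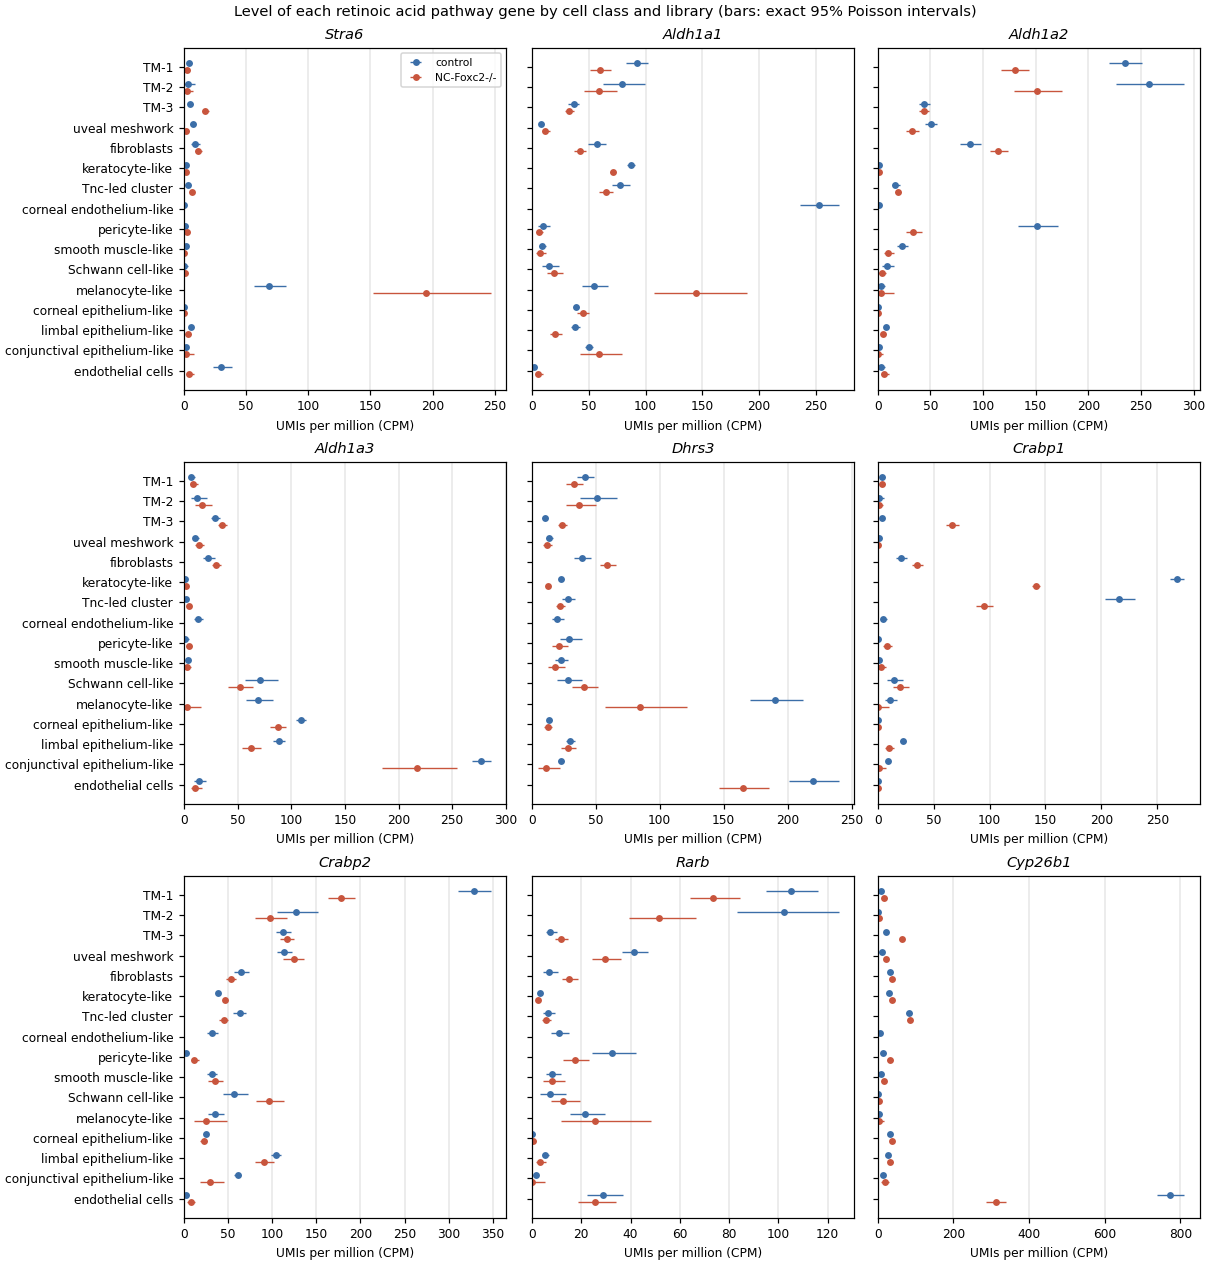
Level of each of the 9 genes (x axis, CPM, linear and starting at 0, with its own range in each panel) in 16 cell classes (rows) for the control (blue) and NC-Foxc2-/- (red) libraries. Points are levels over all cells of a class, bars are exact 95% Poisson intervals, and a library with under 20 cells of a class has no point. Aldh1a2 and Rarb peak in TM-1 and TM-2, Aldh1a3 in the conjunctival epithelium-like class, Crabp1 in the keratocyte-like class and Cyp26b1 in endothelial cells.

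Over 15 classes of stroma, meshwork, vessel, glia, pigment cells and epithelium with at least 20 cells in each library, the 9 genes gave 135 gene and class pairs, of which 95 had at least 50 UMIs. Blood, immune, retina-like and unnamed cells were left out of this count, and their values are given further on. Of these, 10 were higher, 11 were lower and 74 lay within 2-fold. Among all genes in the same classes, 3.01% of 126536 tested pairs were higher and 4.01% were lower. The calls were uneven over classes. TM-3 held 4 of the 10 higher calls (4 of 9 measured members, with 5.93% of all genes there past 2-fold either way). The melanocyte-like and conjunctival epithelium-like classes, with 56 and 31 NC-Foxc2-/- cells, held 4 and 3 calls, but all genes were past 2-fold at 19.0% and 20.1% there.

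**Figure D2:**
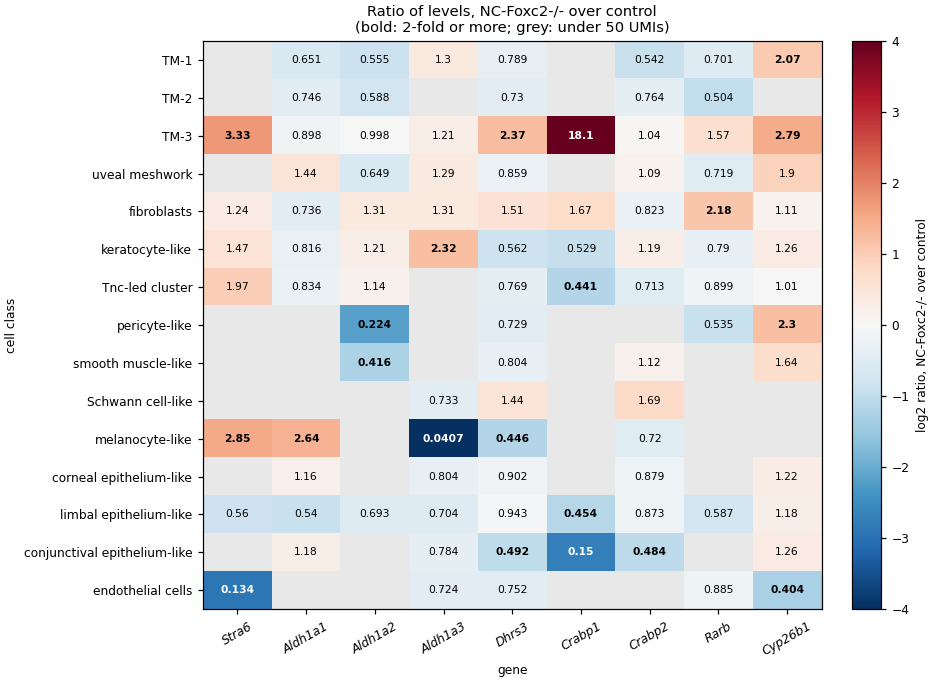
Ratio of levels, NC-Foxc2-/- over control (number in each cell and colour on a log2 scale held to 4 either way), for the 9 genes (columns) in 15 cell classes (rows). Bold marks ratios of 2-fold or more and grey marks pairs with under 50 UMIs. TM-3 holds 4 bold values above 1, and the lowest values are Aldh1a3 in melanocyte-like cells, Stra6 in endothelial cells and Crabp1 in conjunctival epithelium-like cells.

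For retinol uptake, the RNA of Stra6, the receptor for retinol-binding protein, was counted. Its levels were low in most classes, and the order began with melanocyte-like cells at 68.4 CPM (56.7 to 81.7) in control and 195 CPM (152 to 247) in NC-Foxc2-/-. Endothelial cells followed in control at 30.2 CPM (23.4 to 38.3), with fibroblasts at 9.03 CPM and uveal meshwork at 7.25 CPM, whose intervals overlap. In NC-Foxc2-/- the second place was taken by TM-3 at 17.04 CPM (14.2 to 20.3). Corneal epithelium-like cells held 1 Stra6 UMI in 948 control cells and 0 in 319 NC-Foxc2-/- cells.

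The Stra6 ratio was 3.33 in TM-3 (2.25 to 5.08), 0.134 in endothelial cells (0.0521 to 0.293) and 2.85 in melanocyte-like cells (2.09 to 3.87). The TM-3 value rested on few cells, described with Crabp1 below. The melanocyte-like class changed its make-up, since its 5 melanocyte markers went from a sum of 26262 to 5970 CPM, all 5 lower. Its 4 markers of ciliary or retinal pigment epithelium, where Stra6 is classically found, went from 1036 to 1983 CPM, with 3 of 4 higher, and its 5 erythrocyte markers stood at 1859 and 15057 CPM, with all 5 higher. The part of these shifts in the class's Stra6, Aldh1a1, Aldh1a3 and Dhrs3 values was not tested.

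For synthesis, the RNA of the 3 retinal dehydrogenases was counted. Aldh1a2, the enzyme that dominates in embryonic mesenchyme, was highest in TM-2 at 257 CPM (226 to 291) and TM-1 at 234 CPM (219 to 251) in control, which overlap. Pericyte-like cells followed at 151 CPM (133 to 171) and fibroblasts at 87.6 CPM (77.8 to 98.3). In NC-Foxc2-/- the order was TM-2 at 151 CPM (130 to 175), TM-1 at 130.1 CPM (117 to 144) and fibroblasts at 115 CPM (106 to 124). It was near 0 in corneal epithelium-like cells, with 9 UMIs in 948 control cells. Limbal epithelium-like cells held 85 control UMIs (7.56 CPM), 78 of them in the sub-cluster led by Col1a1, Dcn and Kera.

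In both beam-type clusters Aldh1a2 was lower in NC-Foxc2-/- without passing 2-fold. The ratio was 0.555 in TM-1 (0.490 to 0.627) and 0.588 in TM-2 (0.482 to 0.716). Within TM-1 the 3 larger sub-clusters gave like ratios. They were 0.526 (0.429 to 0.642) in the sub-cluster led by Procr and Nts, 0.485 (0.382 to 0.611) in that led by Fos and Jun and 0.495 (0.379 to 0.646) in that led by Myoc and Sparcl1. Weighted to the control mix of sub-clusters, the TM-1 ratio was 0.497, just past 2-fold. TM-3 held less Aldh1a2 and nearly the same level in both libraries, at 44.3 and 44.2 CPM (ratio 0.998, 0.848 to 1.17).

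Among these 15 classes, the lower calls of Aldh1a2 were in the contractile ones. It stood at 151 CPM in 381 control pericyte-like cells and at 33.8 CPM (26.9 to 41.8) in 538 NC-Foxc2-/- cells, a ratio of 0.224 (0.172 to 0.287). In smooth muscle-like cells it was 23.4 CPM (18.7 to 28.8) and 9.71 CPM (5.76 to 15.4), a ratio of 0.416 (0.236 to 0.696). The pericyte-like class held 2 sub-clusters. The sub-cluster led by Spp1 and Ccl11 was 63.8% of control and 39.2% of NC-Foxc2-/- pericyte-like cells, and within it Aldh1a2 went from 260.4 to 77.6 CPM (ratio 0.298, 0.225 to 0.391). The sub-cluster led by Acta2 and Xirp1 held 15 and 13 UMIs (ratio 0.414, 0.181 to 0.932). Pericyte-like cells thus carried less Aldh1a2 within each sub-cluster as well as a different mix of them. The summed beam markers of this class went from 316 to 134 CPM, with 3 of 5 higher, and their part in the result was not tested. In all, 2 of the 4 measured members were called in pericyte-like cells, beside 9.32% of all genes, and 1 of 4 in smooth muscle-like cells, beside 3.38%.

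Fibroblasts went the other way for Aldh1a2, from 87.6 to 115 CPM (ratio 1.31, 1.14 to 1.51), and this split by sub-cluster. In the sub-cluster led by Ly6c1, Anxa3 and Pi16 it went from 53.3 to 129 CPM (ratio 2.42, 1.91 to 3.09). In that led by Cxcl14 and Chil1 it went from 135 to 111 CPM (ratio 0.824, 0.689 to 0.990). The first of these made up 53.8% of control and 25.7% of NC-Foxc2-/- fibroblasts.

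Aldh1a3, the retinal dehydrogenase of the ventral eye and of surface epithelia, followed another order. Conjunctival epithelium-like cells led at 277 CPM (269 to 286) in 503 control cells and 217 CPM (185 to 254) in 31 NC-Foxc2-/- cells. Corneal epithelium-like cells stood at 109 CPM (104 to 114) and 87.5 CPM (80.2 to 95.2), and limbal epithelium-like cells at 88.4 CPM (83.0 to 94.1) and 62.3 CPM (54.0 to 71.5). All 3 epithelial ratios were under 1 and within 2-fold, at 0.784, 0.804 and 0.704. The differentiated conjunctival sub-cluster led by Psca, Krt19 and Krt4 carried the most Aldh1a3, at 380.2 CPM in 278 control cells and 268 CPM in 12 NC-Foxc2-/- cells, and a single control cell held 85 UMIs.

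Outside the epithelium Aldh1a3 marked Schwann cell-like cells, at 71.0 CPM (56.9 to 87.4) in control and 51.98 CPM (41.3 to 64.5) in NC-Foxc2-/-. It lay almost wholly in the sub-cluster led by haemoglobin genes, Ccn2 and Scn7a, at 88.4 and 66.2 CPM. The sub-cluster led by Ncmap and Prx held 2 and 4 UMIs of it. TM-3 held 29.4 CPM (25.3 to 34.0) and 35.6 CPM (31.4 to 40.1), above TM-1 at 6.75 and 8.76 CPM, with intervals that do not overlap between TM-3 and TM-1 in either library.

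The calls of Aldh1a3 were at low levels or in a changed class. In keratocyte-like cells the ratio was 2.32 (1.33 to 4.26), from 0.653 to 1.52 CPM, beside 1.95 and 2.22 CPM in the macrophage-like class and 0.268 and 0 CPM in the erythrocyte-like class. In melanocyte-like cells it went from 122 UMIs in 180 cells to 1 UMI in 56 cells (ratio 0.0407, 0.00102 to 0.231).

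Aldh1a1, the retinal dehydrogenase of the dorsal eye, was highest in the 170 control corneal endothelium-like cells at 253 CPM (236 to 270), and 87.6% of those cells held a UMI of it. Only 9 such cells were in the NC-Foxc2-/- library, so no ratio was taken. The next levels in control were TM-1 at 92.1 CPM (82.6 to 102), keratocyte-like cells at 87.0 CPM (83.5 to 90.7) and TM-2 at 79.5 CPM (62.8 to 99.4), which do not differ beyond their intervals. In NC-Foxc2-/- they were 59.9, 71.0 and 59.3 CPM. The ratios were 0.651 in TM-1 (0.538 to 0.784) and 0.816 in keratocyte-like cells (0.771 to 0.864). Within the keratocyte-like class, Aldh1a1 was high in the sub-cluster led by Apoe, Gal and Lgmn, at 154 and 117 CPM, and lower in the largest sub-cluster, at 43.8 and 57.95 CPM. The single call was in melanocyte-like cells, from 54.7 to 144 CPM (ratio 2.64, 1.84 to 3.74). Reads of Aldh1a1 and its close copy Aldh1a7 may be split uncertainly, but Aldh1a7 reached only 7.53 CPM, in control corneal epithelium-like cells.

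Cells with a UMI of any of the 3 dehydrogenases were counted after each cell was thinned to 2000 UMIs. They were 46.3% of TM-1 and 47.5% of TM-2 cells in control, and 30.8% and 31.3% in NC-Foxc2-/-. Conjunctival epithelium-like cells reached 39.3% and 29.0%, while keratocyte-like cells stayed at 15.4% and 12.2%. Pericyte-like cells went from 19.6% to 7.48%. Cells with UMIs of 2 or more of the 3 genes were rare, at 38 of 605 control TM-1 cells.

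Dhrs3, which returns retinal to retinol and is itself known to be induced by retinoic acid, was most abundant in endothelial cells, at 219.9 CPM (201 to 240) in control and 165 CPM (147 to 186) in NC-Foxc2-/-. Melanocyte-like cells followed at 190.2 CPM (170 to 212) and 84.8 CPM (57.2 to 121), a ratio of 0.446 (0.296 to 0.648). Macrophage-like cells also held 107 and 89.6 CPM, while erythrocyte-like cells held 0.803 and 0.386 CPM. In keratocyte-like cells it went from 22.9 to 12.9 CPM (ratio 0.562, 0.497 to 0.635) and in fibroblasts from 39.1 to 59.0 CPM (ratio 1.51, 1.23 to 1.86).

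In TM-3 Dhrs3 went from 10.1 CPM (7.74 to 12.9) to 23.9 CPM (20.5 to 27.7), a ratio of 2.37 (1.77 to 3.22). It was concentrated in the sub-cluster led by Pla2g7 and Sfrp4, at 44.8 and 61.7 CPM, against 3.49 and 5.80 CPM in that led by Npy and Krt18. The first sub-cluster held 102 of 852 control and 380 of 1142 NC-Foxc2-/- TM-3 cells, and with both libraries weighted to the control mix the ratio was 1.198. The call therefore ended when the mix of TM-3 cells was held constant.

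Crabp1, a cytoplasmic retinoic acid-binding protein, was the stromal member. Keratocyte-like cells held 268 CPM (262 to 274) in 1577 control cells and 142 CPM (138 to 146) in 2424 NC-Foxc2-/- cells, a ratio of 0.529 (0.510 to 0.548). It was lower in NC-Foxc2-/- in each of the 6 keratocyte-like sub-clusters, with ratios from 0.442 to 0.599, and the ratio was 0.499 when weighted to the control mix. Cells with no Crabp1 UMI were 371 of the control and 944 of the NC-Foxc2-/- keratocyte-like cells. Thinned to 1000 UMIs a cell, 311 of 1577 control cells (19.7%) and 323 of 2424 NC-Foxc2-/- cells (13.3%) held a Crabp1 UMI, against 76.5% and 61.1% unthinned. Macrophage-like cells, which should lack the gene, were at 1.51% and 1.30% when thinned. The 5 keratocyte markers also stood lower, at 16134 and 12965 CPM, all 5 of them, and their part in the result was not tested. Crabp1 stayed inside the rule, and 1 of 9 measured members, Aldh1a3 at its low level, was called in keratocyte-like cells, beside 3.51% of all genes.

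The Tnc-led cluster followed for Crabp1, at 216 CPM (203 to 230) in control and 95.3 CPM (88.3 to 103) in NC-Foxc2-/-, a ratio of 0.441 (0.3996 to 0.486) and the 1 call among 8 measured members there, beside 2.83% of all genes. All 4 of its sub-clusters were lower, from 321 to 69.5, 305 to 122, 130 to 61.5 and 262 to 110 CPM. This class was uneven between libraries, since its median depth was 12622.5 UMIs a cell in control and 3530 in NC-Foxc2-/- and 28.6% of its cells were called doublets. The first of the sub-clusters, led by haemoglobin genes, was 25.1% of control and 50.6% of NC-Foxc2-/- cells.

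In TM-3 Crabp1 moved in the opposite direction to the stroma, from 3.68 CPM (2.33 to 5.51) to 66.4 CPM (60.7 to 72.6), a ratio of 18.1 (11.9 to 28.8), or 6.43 with the control mix of sub-clusters. The difference lay in few cells. Of 1142 NC-Foxc2-/- TM-3 cells, 34 held 3 or more Crabp1 UMIs, and these held 473 of the 495 Crabp1 UMIs of the class, with up to 43 in a cell. The control library had 2 such cells. Of the 34, 31 were in the sub-cluster led by Pla2g7 and Sfrp4, and none was called a doublet.

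These 34 cells were described after their Crabp1 counts were seen, and the genes that set them apart from the other NC-Foxc2-/- TM-3 cells were picked by size of difference. Pla2g7, which encodes a secreted phospholipase, was at 2179 CPM (2002 to 2368) in them and 9.17 CPM in the rest. Wif1, an inhibitor of Wnt ligands, was at 1409 and 59.1 CPM, and Wnt5a at 1084 and 74.8 CPM. The smooth muscle genes Tagln and Acta2 were at 5251 and 3639 CPM against 453 and 315 CPM. The juxtacanalicular markers Myoc and Chil1 were low, at 15.7 and 43.0 CPM against 1071 and 1518 CPM. The keratocyte gene Kera was at 62.6 CPM against 103 CPM. Other markers differed less where NC-Foxc2-/- TM-3 was split into 52 cells with any Crabp1 UMI and 1090 without. The juxtacanalicular marker Tnmd was at 293 and 391 CPM there, and the summed keratocyte markers at 1498 and 1443 CPM. Stra6 was also in the 34 cells, at 305 CPM (241 to 381) against 6.81 CPM. So was Aldh1a3, at 160.4 CPM (115 to 218) against 31.1 CPM. Thus a small set of cells inside TM-3 carried Crabp1 and Stra6 together with genes that differed from the rest of the cluster.

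Leaving such cells out of both libraries, a choice made after seeing the data, took the Stra6 ratio of TM-3 from 3.33 to 1.33 (0.833 to 2.14), which ended its call. It left the ratio of Cyp26b1 at 2.76 and that of Dhrs3 at 2.28. With 1 pooled library a condition, a difference between genotypes and a difference in how much of a neighbouring tissue was dissected cannot be told apart for these cells.

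**Figure D3:**
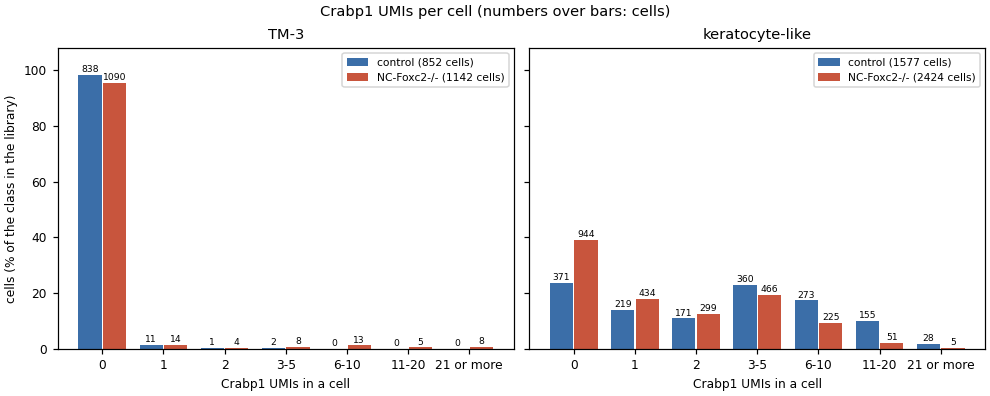
Share of cells (y axis, percent of the class in each library) by the number of Crabp1 UMIs in the cell (x axis, binned) in TM-3 (left) and keratocyte-like cells (right), control in blue and NC-Foxc2-/- in red, with the number of cells over each bar. In TM-3 the NC-Foxc2-/- library has 34 cells with 3 or more UMIs and control has 2, while in keratocyte-like cells the NC-Foxc2-/- library has more cells at 0.

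In the surface epithelium Crabp1 was low and called lower in the limbal class, from 22.4 CPM (19.7 to 25.4) to 10.2 CPM (7.003 to 14.3), a ratio of 0.454 (0.306 to 0.654). Nearly all of it, 242 of 252 control UMIs, was in a sub-cluster led by the stromal genes Col1a1, Col1a2, Dcn and Kera, and 30.3% of the limbal class were called doublets. The Krt15- and Gpha2-led sub-cluster held 0.660 and 1.04 CPM. So the epithelial cells of this class held almost no Crabp1. The limbal class had 1 call among 9 measured members, beside 7.67% of all genes. In conjunctival epithelium-like cells 136 UMIs in control set against 1 UMI in NC-Foxc2-/- (ratio 0.150, 0.00377 to 0.850), and Crabp2 and Dhrs3 were called there too, on 21 and 8 NC-Foxc2-/- UMIs.

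Crabp2, which carries retinoic acid to its nuclear receptors, was the meshwork member of the pair. TM-1 led at 329 CPM (310 to 348) in control and 178 CPM (163 to 194) in NC-Foxc2-/-. TM-2, uveal meshwork and TM-3 overlapped in control at 127, 114 and 112 CPM, and stood at 97.1, 124 and 116 CPM in NC-Foxc2-/-. The TM-1 ratio was 0.542 (0.488 to 0.601), and it differed by sub-cluster. It was 0.205 (0.166 to 0.251) in the Myoc- and Sparcl1-led sub-cluster, from 845 to 173 CPM, and 0.483 (0.416 to 0.560) in the Procr- and Nts-led one, but 0.903 (0.712 to 1.14) in that led by Fos and Jun.

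Crabp2 was also an epithelial and glial gene. Limbal epithelium-like cells held 104 CPM (98.3 to 110) and 90.9 CPM (80.9 to 102), with 146 and 118 CPM in the Krt15-led sub-cluster, above corneal epithelium-like cells at 25.4 and 22.3 CPM. Schwann cell-like cells went from 57.2 to 97.0 CPM (ratio 1.69, 1.27 to 2.28), with 138 and 263 CPM in the Ncmap- and Prx-led sub-cluster. Crabp2 and Aldh1a3 thus marked different Schwann cell-like sub-clusters. No member was called among 3 measured in Schwann cell-like cells or among 5 in corneal epithelium-like cells, beside 3.81% and 4.11% of all genes.

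Rarb, a retinoic acid receptor whose promoter element is shown above, was read as receptor and target. Its order was TM-1 at 105 CPM (94.9 to 116), TM-2 at 102 CPM (83.1 to 124), uveal meshwork at 41.5 CPM (36.5 to 47.0) and pericyte-like cells at 32.3 CPM (24.2 to 42.2) in control. The first 2 overlap, and so do the last 2. In NC-Foxc2-/- the same classes stood at 73.6, 51.6, 29.8 and 17.3 CPM, ratios of 0.701 (0.590 to 0.831), 0.504 (0.360 to 0.702), 0.719 (0.566 to 0.909) and 0.535 (0.350 to 0.816). All 4 intervals lie under 1 and none reached the 2-fold rule, although TM-2 stood at 0.496 without haemoglobin and mitochondrial genes in the total. Corneal epithelium-like cells held 4 Rarb UMIs in 948 control cells, while control melanocyte-like cells held 21.6 CPM and Schwann cell-like cells 7.26 CPM of it, so classes with Aldh1a3 differed in their Rarb.

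The order of Rarb resembled that of Aldh1a2. Over 39 points, each a class in a library, the Pearson correlation of log2(CPM + 1) between Rarb and Aldh1a2 was 0.753, the highest among the 36 pairs of members. Points of a library share its depth and free RNA, so this is a description. The single Rarb call was in fibroblasts, from 6.92 CPM (4.39 to 10.4) to 15.1 CPM (12.1 to 18.5), a ratio of 2.18 (1.37 to 3.61). It was the 1 call among 9 measured members there, beside 10.9% of all genes.

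In the beam-type clusters the median of the members lay under 1, with exceptions in TM-1, where Aldh1a3 stood at 1.30 and Cyp26b1 at 2.07. The median log2 ratio over the measured members was -0.51 in TM-1 and -0.45 in TM-2, against -0.02 and -0.01 over all genes. In TM-3 it was 0.65 against 0.06, and 0.24 over 8 members without the cells of 3 or more Crabp1 UMIs. TM-1 had 1 call, Cyp26b1 higher, among 7 measured members, TM-2 had 0 of 5 and uveal meshwork 0 of 7, beside 3.94%, 4.65% and 3.54% of all genes. Summed erythrocyte markers moved between libraries in the same classes, from 1786 to 4567 CPM in TM-1 and from 17024 to 303 CPM in TM-2, and their part in the members' values was not tested. Without haemoglobin and mitochondrial genes in the total, the Aldh1a2 ratio was 0.556 in TM-1 and 0.579 in TM-2.

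Cyp26b1, which clears retinoic acid, was the member with the widest range of levels. Endothelial cells led at 773 CPM (737 to 811) in 207 control cells and 312 CPM (286 to 340) in 253 NC-Foxc2-/- cells. The Tnc-led cluster followed at 83.3 CPM (75.2 to 92.0) and 84.5 CPM (78.0 to 91.5), and the other classes with at least 20 cells in each library were at 33.7 CPM or below in control. Within the Tnc-led cluster the sub-cluster led by C1ql2 and G0s2 held 171 and 173 CPM.

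The endothelial level came from blood endothelial cells (BEC). Cells of the Schlemm's canal and lymphatic sub-cluster held 0 Cyp26b1 UMIs among 841710 in control and 0 among 185889 in NC-Foxc2-/-, where the exact interval reaches up to 4.38 and 19.8 CPM, while all BEC together held 1246 and 380.1 CPM. The BEC ratio was 0.305 (0.276 to 0.336). Stra6 followed with 48.6 and 4.97 CPM (ratio 0.102, 0.0396 to 0.223), Dhrs3 with 304 and 187 CPM (ratio 0.614, 0.525 to 0.718) and Rarb with 45.7 and 29.8 CPM (ratio 0.652, 0.431 to 0.979). Over all endothelial cells, 2 of 5 measured members were called, Cyp26b1 at 0.404 (0.366 to 0.445) and Stra6 at 0.134, beside 7.12% of all genes.

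The BEC difference was not the same in each sub-cluster. Cyp26b1 went from 2233 to 891 CPM in BEC-5, from 1206 to 652 CPM in BEC-3 and from 482 to 110 CPM in BEC-2. It went from 174 CPM (116 to 249) to 284 CPM (225 to 354) in BEC-4 and from 412 CPM (333 to 505) to 481 CPM (397 to 577) in BEC-6. BEC-5, the highest, was 43 of 123 control and 14 of 208 NC-Foxc2-/- BEC. It held 1177 of the 1716 control Cyp26b1 UMIs of BEC. The ratios over all BEC thus hold a change of mix as well as of levels, and the part of each was not tested. Dhrs3 and Stra6 were also highest in BEC-3 and BEC-5 in control, at 417 and 393 CPM for Dhrs3 and 97.8 and 53.1 CPM for Stra6. The paper reports Ihh, a marker of the choriocapillaris at the back of the eye, in BEC-3. It proposes that these cells may have been carried in by the dissection. Endothelial cells are not neural crest-derived. Foxc2 in the endothelial class stood at 25.2 and 4.64 CPM. The control class of 207 cells had 84 in its Schlemm's canal and lymphatic sub-cluster, and the NC-Foxc2-/- class of 253 had 23 there. In the paper, Foxc2 was higher in that sub-cluster than in BEC. The NC-Foxc2-/- class also held 22 cells of a sub-cluster that the paper describes as specific to these mice. Cyp26b1 stood there at 23.0 CPM (4.74 to 67.2), with 0 Stra6 UMIs. How far these changes of mix enter the Foxc2 values, or the ratios over all endothelial cells, was not tested.

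**Figure D4:**
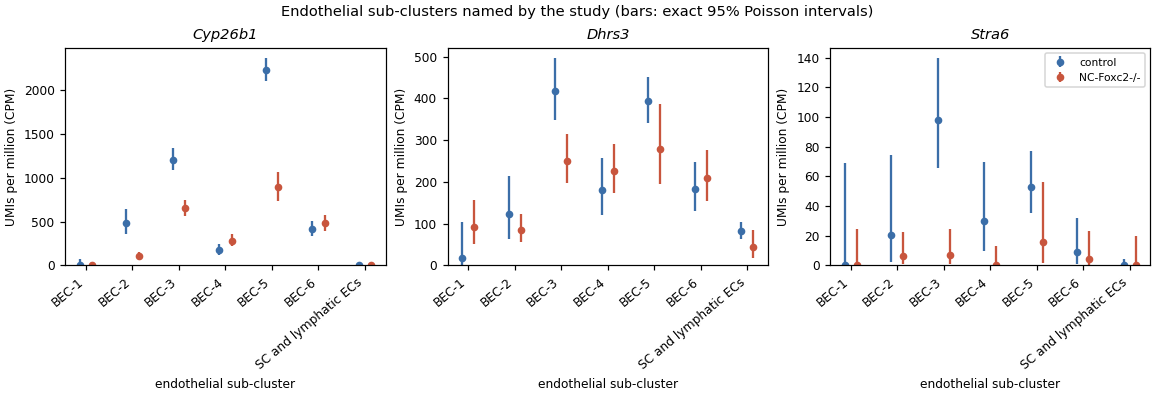
Levels of Cyp26b1, Dhrs3 and Stra6 (y axis, CPM, linear, with its own range in each panel) in endothelial sub-clusters named by the study (x axis), control in blue and NC-Foxc2-/- in red, with exact 95% Poisson intervals. Only sub-clusters with cells of both libraries are shown. Cyp26b1 is highest in BEC-5 and lower there in NC-Foxc2-/-, with BEC-4 and BEC-6 not lower, and the Schlemm's canal and lymphatic sub-cluster holds none of it.

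Cyp26b1 went the other way in the meshwork. In TM-3 it was at 23.0 CPM (19.4 to 27.1) in 852 control cells and 64.3 CPM (58.7 to 70.3) in 1142 NC-Foxc2-/- cells, a ratio of 2.79 (2.31 to 3.39). The sub-cluster led by Ecrg4 and Chil1 went from 45.0 to 118 CPM (ratio 2.62, 2.04 to 3.41), that led by Npy and Krt18 from 11.3 to 29.0 CPM (ratio 2.56, 1.67 to 3.96) and that led by Pla2g7 and Sfrp4 from 11.7 to 36.3 CPM (ratio 3.11, 1.36 to 8.75). Unlike Crabp1, Stra6 and Dhrs3 in the same class, the Cyp26b1 difference was thus spread over sub-clusters. TM-1 was at 8.64 and 17.9 CPM (ratio 2.07, 1.30 to 3.33) and pericyte-like cells at 14.0 and 32.2 CPM (ratio 2.30, 1.43 to 3.83). Uveal meshwork was just inside the rule at 10.96 and 20.8 CPM (ratio 1.90, 1.34 to 2.70).

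The classes left out of the count give the level of these genes where few of them would be looked for. Erythrocyte-like cells, 974 in control and 647 in NC-Foxc2-/-, held at most 6.43 CPM of any member, Aldh1a1 in control, and at most 1.34 CPM of the other 8. Macrophage-like cells held more, and 7.44% of that class were called doublets. Their Crabp1 went from 40.2 to 16.3 CPM (ratio 0.405) and their Aldh1a2 from 14.9 to 5.43 CPM (ratio 0.364), both lower calls, and their Cyp26b1 from 3.89 to 18.8 CPM (ratio 4.82), a higher call. In the NK/T/B cell-like class Crabp1 stood at 10.1 CPM (3.72 to 22.1) in control and at 39.1 CPM (27.7 to 53.7) in NC-Foxc2-/-. Crabp1 was also called higher in retina-like cells, from 23.3 to 98.2 CPM, and lower in unnamed cells, from 163.7 to 81.3 CPM. Crabp1 was thus found beyond the stroma, and how much of that was free RNA was not tested.

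Members were found in the same cells near the product of their shares for some pairs and above or below it for others. This held in TM-1 and keratocyte-like cells as in other classes. After thinning to 2000 UMIs, 63 of 605 control TM-1 cells held both Aldh1a2 and Crabp2, where the product of the shares gives 53.9 cells, and 42 held both Aldh1a2 and Rarb, where it gives 41.2. In control keratocyte-like cells 62 held both Aldh1a1 and Crabp1, where the product gives 81.3. Crabp1 was in 26.2% of the Aldh1a1-holding cells and in 35.7% of the others. In NC-Foxc2-/- these shares were 18.2% and 22.0%. In pericyte-like cells 12 control and 5 NC-Foxc2-/- cells held both Aldh1a2 and Rarb, where the product gives 4.06 and 1.28. In TM-3, 20 and 26 cells held both Aldh1a2 and Crabp2, where it gives 9.93 and 12.8, and 15 NC-Foxc2-/- cells held both Crabp1 and Stra6, where it gives 0.867. In NC-Foxc2-/- TM-1, 31 cells held both Aldh1a2 and Crabp2, where it gives 19.7, and 5 held both Aldh1a1 and Aldh1a2, where it gives 11.4. Among pairs below the product, 6 NC-Foxc2-/- fibroblasts held both Aldh1a2 and Dhrs3, where it gives 14.1. In NC-Foxc2-/- TM-3, 4 cells held both Aldh1a1 and Crabp2, where it gives 8.65.

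The wider pathway list had 73 genes, of which 72 were in the files. Few of them were called in the meshwork. In TM-1, 0 of 38 measured were past 2-fold, beside 3.94% of all genes. In TM-2, 2 of 27 (7.41%, beside 4.65% of all genes) were higher, namely Rbp4, which carries retinol in blood, from 16.5 to 68.8 CPM (ratio 4.16), and the coactivator Ncoa3 from 32.0 to 70.5 CPM (ratio 2.20). In TM-3, 4 of 44 were higher and 0 lower, which is 9.09% beside 5.93% of all genes. These were Ttr, which carries retinol-binding protein, from 1.92 to 10.6 CPM (ratio 5.53), Gprc5b from 4.79 to 14.8 CPM, Rbp4 from 4.31 to 12.9 CPM, and the retinol dehydrogenase Adh1 from 1.92 to 5.37 CPM. Ttr was among the leading genes of the melanocyte-like cluster, and was also higher at low levels in fibroblasts and keratocyte-like cells. How much of it was free RNA was not tested. In uveal meshwork (5.13% past 2-fold, beside 3.54% of all genes) 1 of 39 was higher (Rai1, ratio 2.16) and 1 lower (Rbp4, from 24.4 to 11.9 CPM, ratio 0.486).

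Fibroblasts had the most list calls among classes with over 100 cells in each library, with 6 of 43 higher and 5 lower, which is 25.6% beside 10.9% of all genes. Rbp4 went from 5.12 to 27.2 CPM and Ttr from 1.81 to 10.7 CPM. The lipid and retinoic acid carrier Fabp5 went from 262 to 54.3 CPM (ratio 0.207, 0.182 to 0.236) and the Wnt inhibitor Dkk2 from 294 to 89.5 CPM (ratio 0.305, 0.274 to 0.339). The fibroblast markers of this class summed to 10605 and 6844 CPM, 1 of 5 higher, and their part in these values was not tested.

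In pericyte-like cells 2 of 34 list genes were higher and 4 lower, which is 17.6% beside 9.32% of all genes. Tgm2, a transglutaminase known to answer to retinoic acid, went from 38.4 to 185 CPM (ratio 4.83, 3.71 to 6.39), and Gprc5a, named for its induction by retinoic acid, from 20.7 to 56.7 CPM. The transcription factor Hic1 went from 113 to 33.4 CPM (ratio 0.296) and the retinol dehydrogenase Rdh5 from 28.6 to 12.5 CPM. Rdh10, which makes the retinal that ALDH1A2 oxidises, was lower too, from 177 to 87.6 CPM (ratio 0.494, 0.413 to 0.591), and is named after its value was seen. Genes known to answer to retinoic acid thus went both ways in this class.

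Elsewhere the list's share past 2-fold was 2.38% in keratocyte-like cells, 4.88% in the Tnc-led cluster, 4.76% in the limbal, 12.1% in the endothelial and 35.7% in the melanocyte-like class. The shares over all genes there were 3.51%, 2.83%, 7.67%, 7.12% and 19.0%. Keratocyte-like cells had 1 of 42 (Ttr, from 0.730 to 4.63 CPM), the Tnc-led cluster 2 of 41, both lower (Cyp26a1, ratio 0.463, and Rbp4, ratio 0.471), and smooth muscle-like, Schwann cell-like and corneal epithelium-like cells 0 of 32, 28 and 37. Limbal epithelium-like cells had 2 of 42, both lower, among them the retinol carrier Rbp2 from 106 to 41.0 CPM. Conjunctival epithelium-like cells had 4 of 38, where 20.1% of all genes passed. The 4 were all lower and all on under 10 NC-Foxc2-/- UMIs, among them Aldh1a7, Rxrb and Rarres2. Endothelial cells had Rbp7, a retinol-binding protein, from 13.5 to 149.6 CPM (ratio 11.1, 7.57 to 16.7) and the lipase Lpl from 7.21 to 42.3 CPM higher, and 2 lower, among them Dhrs4 (ratio 0.421), of 33. Melanocyte-like cells had 6 of 28 higher, among them Ttr (ratio 2.60), and 4 lower, led by Rbp2 and Gprc5a (ratio 0.342), with Rbp2 at 83 UMIs in control and 0 in NC-Foxc2-/-.

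By the likeness of patterns over the same 39 points, each member was set beside the closest of 11765 genes. Aldh1a2 was close to Tmem100 (Pearson r 0.924) and the beam marker Edn3 (0.923), and Rarb to Adamts1 (0.892), Mpzl1 (0.888) and Tmem140 (0.881). Crabp1 was closest to Matn4 (0.904), Ccbe1 (0.863) and Zfp469 (0.857), and Crabp2 to Efs (0.832), Tpbg (0.821) and Ehbp1 (0.814). Aldh1a3 was closest to Pthlh (0.869), Shroom3 (0.832) and Fabp5 (0.831), and Aldh1a1 was close to Gstt3 (0.809) and Pdpn (0.784). Stra6 was closest to Bace2 (0.737), Mlana (0.716) and Slc16a8 (0.710), Dhrs3 to Rgl2 (0.862), Nubp2 (0.844) and Cnppd1 (0.838), and Cyp26b1 to Acer2 (0.770), Trim16 (0.755) and Ralb (0.745). These are descriptions across cell classes, and the points of a library share its depth and free RNA.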

How the data were processed

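Single-cell libraries of the anterior segment were made with droplet capture from 1 control and 1 NC-Foxc2-/- pool of mice. The authors deposited whole-number UMI counts per gene and cell barcode, made with Cell Ranger 4.0.0 on mm10 according to the submitters' processing notes, with no normalization. Barcodes with over 8% of their UMIs from mitochondrial genes were dropped, which left 10773 of 11285 control and 10872 of 11656 NC-Foxc2-/- barcodes, and 52 barcodes occurred in both libraries. The study's meshwork, fibroblast and endothelial cluster names were recovered by matching the study's per-cell normalized values to the counts, on 19 or 23 genes, to within 0.55 of the last printed digit. From 98.5% to 100.0% of the listed cells of a cluster had a single match. All other cells were clustered with scanpy 1.11.5 and leidenalg 0.10.2 (15 components, 25 neighbours, resolution 0.8, 2.5 for sub-clusters) without the pathway genes, on Python 3.11.15. A cluster was named where at least 3 of a type's markers were 2-fold up, 1 of them among its 10 leading genes, and at most 50% of its cells were doublets. That naming rule was set after the clusters were seen. Doublet calls, 3.92% of control and 4.68% of NC-Foxc2-/- cells, were kept, with their removal as an alternative.

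The UMIs of a class were summed per library. Levels have exact Poisson and ratios exact binomial (Clopper-Pearson) 95% intervals from scipy 1.17.1, for counting error only. No test between conditions was possible. Calls needed a 2-fold ratio, 50 UMIs and 20 cells a library. For shares of cells, each cell was thinned to 1000 or 2000 UMIs and shallower cells were left out. Named genes were all members, the list genes past the rule (where more than 4, the 2 highest and 2 lowest), the 3 genes most like each member, Foxc2 and class markers. A few genes that this rule names are not reported here. The members and lists were chosen with earlier results of these data known. The calling and interval code was tested on simulated counts.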

Additional observations from a re-analysis of the deposited data

Results flagged for a closer look

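Several members went past 2-fold in opposite directions in 2 classes of the same pair of libraries. With 1 library a condition the differences between classes were not tested. The ratio of Crabp1 was 18.1 in TM-3, where 34 cells held most of its UMIs, and 0.150 in conjunctival epithelium-like cells, on 1 NC-Foxc2-/- UMI. The ratio of Stra6 was 3.33 in TM-3 and 0.134 in endothelial cells. Cyp26b1 stood at 2.79 in TM-3, with ratios above 1 in all 5 sub-clusters, and at 0.404 in endothelial cells. Dhrs3 stood at 2.37 in TM-3 and at 0.446 in melanocyte-like cells. Aldh1a3 stood at 2.32 in keratocyte-like cells, from 0.653 to 1.52 CPM, and at 0.0407 in melanocyte-like cells, whose melanocyte markers stood at a ratio of 0.227.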

How the results depend on the processing

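Of 706 member ratios recomputed under other settings, 640 stayed within the rule or interval set for them, 65 moved and 1 reversed, which was Crabp1 in conjunctival epithelium-like cells, at a ratio of 5.39 after thinning to 1000 UMIs, on few UMIs. The settings differed widely, and thinning alone gave 37 of the 65 that moved, with 38 ratios left the same. The count of member and class pairs past the rule, 10 higher and 11 lower, became 2 and 6 after thinning (35 pairs left), 3 and 7 at a minimum of 200 UMIs, and 17 and 23 at 1.5-fold. Without the melanocyte-like, limbal and conjunctival classes, a choice made after seeing the data, it was 8 and 5. Under the other 9 alternatives run it lay between 9 and 13 higher and between 9 and 14 lower. In TM-3, Stra6 fell within 2-fold after thinning (1.12), with the control mix of sub-clusters (1.75) and without the Crabp1 cells (1.33), and Dhrs3 after thinning (1.66) and with the control mix (1.198). Cyp26b1 in TM-1 (1.43) and Rarb in fibroblasts (1.51) fell within it after thinning. With the control mix, Aldh1a2 in TM-1 (0.497) and Crabp1 in keratocyte-like cells (0.499) passed it, as did Rarb in TM-2 (0.496) without haemoglobin and mitochondrial genes. Cyp26b1 in pericyte-like cells left it at a 5% mitochondrial limit (1.91), and Crabp2 (0.564) and Dhrs3 (0.572) in conjunctival cells left it on the scale of the median gene. Without doublets, Aldh1a1 (0.396) and Aldh1a2 (0.322) in the limbal class passed it. The cause was not tested. The median log2 ratio of all genes was beyond 0.1 only in the limbal (-0.14) and conjunctival (-0.22) classes. No paired analysis was possible because each condition is 1 library, and animal-to-animal variation is not measured.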
